A study of Mus musculus with 15 samples.

Results

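miR-126a is a microRNA whose hairpin gives 2 mature arms, miR-126a-5p (mmu-miR-126a-5p) and miR-126a-3p (mmu-miR-126a-3p). Both arms were taken by name from the deposited tables and are 2 of the 248 mature miRNAs listed there. Both passed the filter on low values in every comparison. They were measured by small RNA sequencing in 15 libraries of mouse Kupffer cells, the macrophages that reside in the liver sinusoids. The groups were ob/ob mice at 9 weeks of age (n = 3), wt mice of strain C57BL/6J at 9 weeks (n = 4), ob/ob mice at 14 weeks (n = 4) and wt C57BL/6J mice at 14 weeks (n = 4). ob/ob mice lack functional leptin in the whole body from birth and become obese, and the labels name no other allele and no treatment. The labels do not say how the Kupffer cells were purified or whether mice were pooled. Since no label states that each replicate was its own mouse, the p-values stand for library-to-library spread alone, part of which may be technical. In such bulk samples, fewer cells of a type and less RNA per cell cannot be told apart.

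A microRNA hairpin is cut by Drosha in the nucleus and by Dicer in the cytoplasm into a duplex of its arms. One strand of the duplex is usually kept by an Argonaute protein, where its seed, the bases near the 5′ end, pairs with target mRNAs. The miR-126a hairpin lies within Egfl7, a gene for a secreted protein made mainly by endothelial cells, and miR-126 is known as a microRNA abundant in endothelium. miR-126-3p is known to repress Spred1 and Pik3r2, inhibitors of growth factor signalling, in blood vessels. For miR-126-5p, the Notch ligand relative Dlk1 has been described as an endothelial target.

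The sequences below show the arm that met the test at 9 weeks and its place in the hairpin, as annotated by RefSeq on GRCm38.p6. In the mature sequence the capitals mark the seed, bases 2 to 8, and in the hairpin they mark the 3p arm, bases 46 to 67, with the 5p strand before it.
miR-126a-3p: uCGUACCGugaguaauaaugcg
Mir126a hairpin: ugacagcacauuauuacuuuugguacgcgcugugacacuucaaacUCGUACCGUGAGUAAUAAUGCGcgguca
The mature 3p arm, 22 bases long, lies at chr2:26591402-26591423 and the 73-base hairpin at chr2:26591357-26591429, both on the plus strand. Its seed was held by 1 of the 1679 mature miRNA names in the RefSeq table, miR-126a-3p itself, so no other listed miRNA with a sequence there (218 of the 248) shares it. Egfl7 (ENSMUSG00000026921.18) spans chr2:26580014-26593120 on the same strand. Of its 19 transcripts in GENCODE vM21, which uses the same GRCm38 coordinates, 8 hold the hairpin in an intron and 1, a retained-intron transcript, holds it in an exon. The other 10 do not span it. The Mir126b hairpin lies on the minus strand at chr2:26591363-26591420, and 19 bases of miR-126a-3p are complementary to miR-126b-5p. Neither arm of miR-126b is among the 248 listed miRNAs, and no source used here says whether the authors counted by strand.

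Across the whole series, the listed miRNAs summed to 147387 to 358621 RPM (reads per 1000000 reads) per library, the unit the values were taken to be in. The lowest sum was that of wt replicate 1 at 14 weeks, and at 9 weeks the sums were 230785 to 250422 RPM in ob/ob libraries and 297668 to 358621 RPM in wt libraries. The depth implied by the smallest step between values was 9.08 to 98.1 M reads (M, 1000000). All libraries of 9 weeks were run in lane 2, as were replicates 3 and 4 of 14 weeks, while lane 1 held replicates 1 and 2 of 14 weeks. Among macrophage miRNAs, miR-142a-5p of the haematopoietic miR-142 hairpin was at 1756 to 4320 RPM, and miR-511-3p, made from an intron of the mannose receptor gene, at 53.6 to 183.1 RPM in every library. The other arm, miR-142a-3p, was at 0 to 18.6 RPM, with an exact 0 in 5 libraries.

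miR-126a-5p was among the most abundant miRNAs of these libraries. Its mean over all libraries, 42301 RPM, was the second highest after miR-22-3p (45728 RPM) and was followed by miR-10a-5p (29780 RPM), miR-21a-5p (27222 RPM) and let-7f-5p (24838 RPM). It held rank 1 to 5 by level in each library, rank 5 in wt replicate 1 of 14 weeks. RPM is not divided by length, which differs little between mature miRNAs. The mean RPM of miR-126a-5p was 14.1 times that of the macrophage miRNA miR-142a-5p. Whether the library preparation captured different miRNAs, or both arms of a hairpin, equally well was not tested. Such ratios, and the arm ratios below, therefore compare reads. miR-126a-3p, with a mean of 2426 RPM, was in rank 21, and in ranks 16 to 27 within the 14 libraries where it was above 0.

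At 9 weeks, miR-126a-5p was at 33956, 17434 and 44216 RPM in ob/ob replicates 1 to 3, against 39572, 55694, 40116 and 52147 RPM in wt replicates 1 to 4. ob/ob replicate 3 lay within the wt range, so the groups overlapped, and ob/ob replicate 2 was the lowest. The mean was 31868 ± 13512 RPM in ob/ob libraries and 46882 ± 8258 RPM in wt libraries (SD, n = 3 and 4). At 14 weeks, the values were 52046, 50458, 46856 and 32093 RPM in ob/ob replicates 1 to 4, against 10085, 47375, 53060 and 59409 RPM in wt replicates 1 to 4. wt replicate 1, the library with the lowest sum of listed miRNAs, was far below the other wt libraries, and the groups overlapped. The mean was 45363 ± 9109 RPM in ob/ob libraries and 42483 ± 22150 RPM in wt libraries (SD, n = 4 each), or 53282 ± 6020 RPM in wt without replicate 1 (n = 3).

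miR-126a-3p was at 2011, 1021 and 1707 RPM in ob/ob replicates 1 to 3 of 9 weeks, against 2724, 3592, 2386 and 3072 RPM in wt replicates 1 to 4. Every ob/ob library was below every wt library. The mean was 1580 ± 507.0 RPM in ob/ob and 2943 ± 515.0 RPM in wt (SD, n = 3 and 4). At 14 weeks, the values were 3733, 0, 2869 and 1538 RPM in ob/ob replicates 1 to 4, against 747.4, 3460, 3780 and 3744 RPM in wt replicates 1 to 4. The groups overlapped, since wt replicate 1 was below each of the 3 ob/ob libraries above 0. In ob/ob replicate 2, miR-126a-3p is listed at exactly 0 beside 4947451 reads of miR-126a-5p, the most in any library. The tables give no read numbers, so these and all reads, floors and intervals given here are inferred from the smallest step between values in a library.

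**Figure D1:**
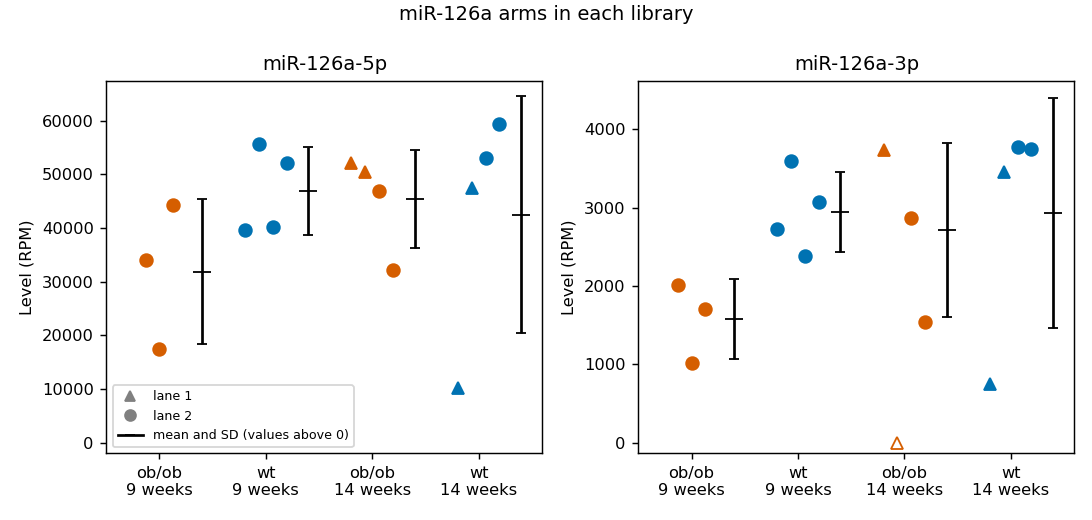
Level of miR-126a-5p (left) and miR-126a-3p (right) in each library, in RPM, for ob/ob and wt at 9 and 14 weeks; triangles are libraries of lane 1, circles those of lane 2, the open triangle is the listed 0, and the bars are the mean and SD of the values above 0. At 9 weeks the 3p levels of ob/ob (1021 to 2011 RPM) lie below those of wt (2386 to 3592 RPM), while the other 3 comparisons of ob/ob with wt overlap.

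At 9 weeks, miR-126a-3p fell in ob/ob relative to wt. Its log2 fold change was -0.94 ± 0.26 (SE) on the log2(RPM + 0.5) scale, with an adjusted p of 0.0230 by limma. That of miR-126a-5p was -0.64 ± 0.31, with an adjusted p of 0.136 by limma. Calls of this kind were common at 9 weeks: 67 of 179 miRNAs tested (37.4%) passed, of which 58 were lower in ob/ob (32.4%) and 9 higher (5.03%), and the median log2 fold change over all of them was -0.51. 47 of the 179 had a more negative fold change than miR-126a-3p. All ob/ob libraries were below all wt libraries for 74 of the 179 (41.3%).

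The call for miR-126a-3p depended on the scale. After each library was rescaled by the median ratio of its miRNAs, which brought the median fold change at 9 weeks to -0.0017, miR-126a-3p was at 1912 ± 656.1 rescaled RPM in ob/ob libraries and 2478 ± 386.2 in wt libraries (SD, n = 3 and 4). The ranges then overlapped, at 1171 to 2421 in ob/ob and 2108 to 2947 in wt. The log2 fold change was -0.43 ± 0.27 with an adjusted p of 0.273 by limma, where 38 of 177 miRNAs (21.5%) passed. The log2 fold change of miR-126a-5p was -0.13 ± 0.34 on that scale, with an adjusted p of 0.803. Without wt replicate 2 or wt replicate 4, the unscaled call for miR-126a-3p was also lost, at limma adjusted p-values of 0.0639 and 0.0529, and miR-126a-5p passed only without ob/ob replicate 3 (log2 fold change -0.93, limma adjusted p 0.0382).

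As a share of all listed reads, miR-126a-5p took 14.7%, 6.96% and 17.9% in ob/ob replicates 1 to 3 of 9 weeks, against 11.04%, 16.9%, 13.5% and 14.5% in wt replicates 1 to 4. The means were 13.2 ± 5.63% in ob/ob and 14.0 ± 2.41% in wt (SD, n = 3 and 4). For miR-126a-3p the share was 0.871%, 0.408% and 0.691% in ob/ob replicates 1 to 3, against 0.760%, 1.09%, 0.802% and 0.857% in wt replicates 1 to 4, and the groups overlapped. At 14 weeks, the mean share of miR-126a-5p was 14.4 ± 1.97% in ob/ob and 13.6 ± 4.59% in wt (SD, n = 4 each), and wt replicate 1 had the lowest share at 6.84%.

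At 14 weeks, neither arm passed the test between ob/ob and wt. The log2 fold change of miR-126a-5p was 0.35 ± 0.52 (SE), with an adjusted p of 0.709 by limma, where 26 of 171 miRNAs (15.2%) passed, 20 of them higher in ob/ob (11.7%), and the median log2 fold change was 0.20. For miR-126a-3p it was -3.03 ± 2.95 with the listed 0 in the fit, and 0.049 ± 0.60 with that 0 taken as missing, with limma adjusted p-values of 0.551 and 0.983. The size of the negative log2 fold change of miR-126a-3p thus rested on 1 library, and without its 0 the value was small beside its SE.

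The 14-week libraries came from both lanes, and the difference between lanes was not tested. In lane 1, miR-126a-5p was at 52046 and 50458 RPM in ob/ob libraries, against 10085 and 47375 RPM in wt libraries, with 1.23 ± 0.65 (SE) as its log2 fold change (limma adjusted p 0.419). In lane 2 it was at 46856 and 32093 RPM in ob/ob libraries, against 53060 and 59409 RPM in wt libraries, with -0.53 ± 0.23 as its log2 fold change (limma adjusted p 0.164). Both ob/ob libraries of lane 1 were above both wt libraries, which held for 69 of the 171 miRNAs (40.4%), and both ob/ob libraries of lane 2 were below both wt libraries, which held for 65 of the 171 (38%). miR-126a-3p in lane 1 was at 3733 and 0 RPM in ob/ob libraries, against 747.4 and 3460 RPM in wt libraries, and the groups overlapped. In lane 2 it was at 2869 and 1538 RPM in ob/ob libraries, against 3780 and 3744 RPM in wt libraries (log2 fold change -0.84 ± 0.34, limma adjusted p 0.146). Without wt replicate 1, which was in lane 1, the log2 fold change of miR-126a-5p over both lanes was -0.25.

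Whether the effect of the ob/ob genotype differed by age was tested as an interaction over all 15 libraries. It was 0.99 ± 0.69 (SE) on the log2 scale for miR-126a-5p, 14 weeks minus 9 weeks, with an adjusted p of 0.360 by limma. For miR-126a-3p it was -2.09 ± 3.32 with the listed 0 in the fit and 0.99 ± 0.70 with it as missing, with limma adjusted p-values of 0.704 and 0.331. Of 187 miRNAs tested by limma, 0 passed (0%), 48 had an unadjusted p under 0.05, and the median interaction was 0.68. After median-ratio rescaling the interaction of miR-126a-5p was 0.26 ± 0.50 (limma adjusted p 0.840).

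**Figure D2:**
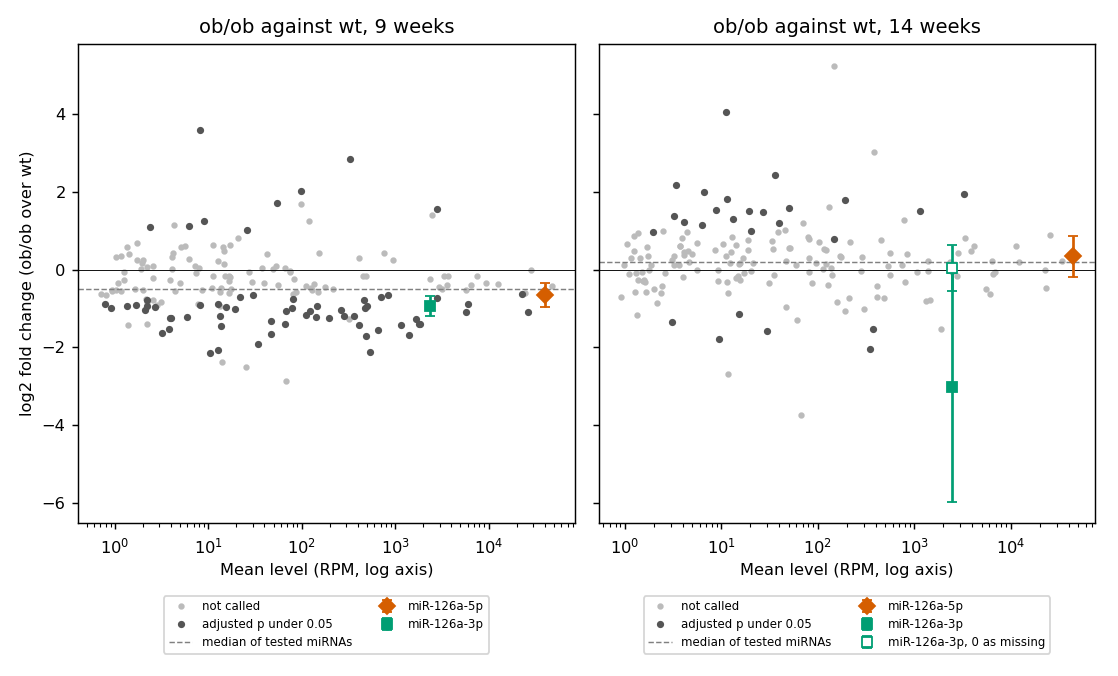
Log2 fold change of ob/ob over wt against mean level (RPM, log axis) for every miRNA tested at 9 weeks (left) and 14 weeks (right); dark points passed an adjusted p of 0.05, the dashed line is the median, bars on the miR-126a arms are standard errors, and the open square is miR-126a-3p with its 0 as missing. At 9 weeks both arms lie below 0, as do most miRNAs (median -0.51), and at 14 weeks the 3p point moves between -3.03 and 0.049 with the treatment of 1 value.

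Several cell type markers differed between ob/ob and wt in the same libraries, and others did not. The hepatocyte list (miR-122 arms, miR-192-5p and miR-194-5p, all 4 of 4 listed) summed to 3966 to 5524 RPM in ob/ob libraries and 1100 to 2222 RPM in wt libraries at 9 weeks. At 14 weeks it summed to 3169 to 6899 RPM in ob/ob and 1099 to 1689 RPM in wt, and miR-192-5p made up most of each sum. By limma, 2 of its 3 tested members were called higher in ob/ob at each age. Over all miRNAs, 5.03% were called higher at 9 weeks and 11.7% at 14 weeks. The called members were miR-192-5p at both ages, miR-122-5p at 9 weeks and miR-194-5p at 14 weeks. miR-122-5p, the most hepatocyte-restricted of them, had a log2 fold change of 2.02 at 9 weeks (limma adjusted p 0.0244) and 0.57 at 14 weeks (limma adjusted p 0.551). After rescaling, limma called all 3 higher in ob/ob at 9 weeks, but only miR-192-5p at 14 weeks. On that scale 21.5% of all miRNAs were called in either direction at 9 weeks and 28.6% at 14 weeks. The erythroid miR-144-5p, the listed member of 3, was at 14.7 to 21.7 RPM in ob/ob and 0.522 to 1.49 RPM in wt at 9 weeks, and at 11.6 to 32.4 RPM in ob/ob and 0.331 to 0.974 RPM in wt at 14 weeks. The myeloid list (3 of 6 listed) summed to 2139 to 3272 RPM in ob/ob and 3144 to 4465 RPM in wt at 9 weeks, and to 2386 to 4026 RPM in ob/ob and 1833 to 2917 RPM in wt at 14 weeks. Its sums overlapped at both ages. Of its 2 tested members, miR-511-3p was called lower in ob/ob at 9 weeks (log2 fold change -1.07, limma adjusted p 0.00984), beside 32.4% of all miRNAs. After rescaling it was not called (limma adjusted p 0.0860), and at 14 weeks neither tested member was. The other listed member, miR-142a-3p, did not pass the filter at either age. At 14 weeks it averaged 13.5 ± 8.89 RPM in ob/ob and 0.0211 ± 0.0422 RPM in wt (SD). The part of these shifts in the values of the miR-126a arms was not tested.

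The stellate and mesenchymal list (7 of 8 listed) summed to 1033 to 1644 RPM in ob/ob and 1385 to 1885 RPM in wt at 9 weeks, and to 1559 to 3011 RPM in ob/ob and 496 to 1865 RPM in wt at 14 weeks. Its members did not move together. Of 6 tested at 9 weeks, miR-199a-3p, miR-214-3p and miR-214-5p were called lower in ob/ob by limma and 0 higher. Over all miRNAs, 32.4% were called lower at 9 weeks and 5.03% higher. The log2 fold change of miR-143-3p was 0.43 (limma adjusted p 0.330). For miR-199a-3p it was -1.55 (limma adjusted p 0.00525, and 0.0371 after rescaling). After rescaling, miR-214-3p and miR-214-5p were not called at 9 weeks (limma adjusted p 0.310 and 0.141). At 14 weeks 0 of the 6 were called, and 1, miR-143-3p, was called higher after rescaling (limma adjusted p 0.0488). The lymphocyte list (3 of 3) summed to 4935 to 6729 RPM in ob/ob and 7421 to 7649 RPM in wt at 9 weeks, and to 5752 to 7982 RPM in ob/ob and 5075 to 8207 RPM in wt at 14 weeks. Its sums at 9 weeks did not overlap, as for 41.3% of single miRNAs, but 0 of its 3 members were called by limma at either age, and its median log2 fold change at 9 weeks was -0.42. The biliary and epithelial list (4 of 5) summed to 54.4 to 87.3 RPM in ob/ob and 51.5 to 71.1 RPM in wt at 9 weeks, and to 53.0 to 103.4 RPM in ob/ob and 22.7 to 56.4 RPM in wt at 14 weeks. Of its 4 members, miR-141-3p was called higher in ob/ob by limma at 14 weeks (adjusted p 0.0495), beside 11.7% of all miRNAs. After rescaling it was called higher at both ages (limma adjusted p 0.0435 at 9 weeks and 0.0457 at 14 weeks). The part of these lists in the miR-126a values was not tested either.

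Of 17 names on a list of miRNAs linked to endothelium and angiogenesis, 11 are listed in the tables and 10 were tested at each age. The list was drawn up with earlier results of these data known, so its counts are a description. At 9 weeks 1 of the 10 was higher in ob/ob and 4 were lower by limma, beside 5.03% higher and 32.4% lower over all miRNAs, with a median log2 fold change of -0.51, the same as over all 179 miRNAs to 2 decimals. Beside miR-126a-3p, the lower ones were miR-222-3p, which represses the stem cell factor receptor Kit in endothelial cells, miR-92a-3p, which represses the integrin subunit gene Itga5, and miR-132-3p, induced by angiogenic growth factors. miR-222-3p averaged 167.5 ± 53.0 RPM in ob/ob and 372.3 ± 12.8 RPM in wt (SD, n = 3 and 4), with -1.19 as its log2 fold change (limma adjusted p 0.00566). The log2 fold changes were -0.74 for miR-92a-3p (limma adjusted p 0.0220) and -0.95 for miR-132-3p (limma adjusted p 0.0256).

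The higher member was miR-210-3p, a hypoxia-induced miRNA. It averaged 9.04 ± 1.48 RPM in ob/ob and 4.06 ± 1.53 RPM in wt at 9 weeks, with 1.13 as its log2 fold change (limma adjusted p 0.0282), and 10.9 ± 3.08 RPM in ob/ob and 2.34 ± 0.676 RPM in wt at 14 weeks, with 1.99 as its log2 fold change (limma adjusted p 0.00256). It was the 1 of 10 called at 14 weeks, beside 15.2% over all miRNAs, where the list's median was 0.22. After rescaling, miR-210-3p was still called at both ages, none of the 4 lower calls of 9 weeks was left (21.5% of all miRNAs were called there), and miR-222-3p was called lower at 14 weeks (log2 fold change -0.93, limma adjusted p 0.0164), where 48 of 168 miRNAs (28.6%) passed. Without the miR-126a arms, the list summed to 8403 to 13008 RPM in ob/ob and 12337 to 15925 RPM in wt at 9 weeks, and to 12979 to 20372 RPM in ob/ob and 6019 to 17416 RPM in wt at 14 weeks.

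The 5p arm outnumbered the 3p arm in every library. The 5p level per 3p level was 16.9, 17.1 and 25.9 in ob/ob replicates 1 to 3 of 9 weeks, against 14.5, 15.5, 16.8 and 17.0 in wt replicates 1 to 4. At 14 weeks it was 13.9, 16.3 and 20.9 in ob/ob replicates 1, 3 and 4, against 13.5, 13.7, 14.0 and 15.9 in wt replicates 1 to 4. ob/ob replicate 3 of 9 weeks had the highest ratio, and ob/ob and wt overlapped at both ages. As a share of both arms, miR-126a-3p ranged from 3.72% in that library (95% Wilson interval 3.69% to 3.75%) to 6.90% in wt replicate 1 of 14 weeks (95% Wilson interval 6.74% to 7.06%). Such intervals and floors cover counting error only, since reads without molecular identifiers are not independent molecules.

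**Figure D3:**
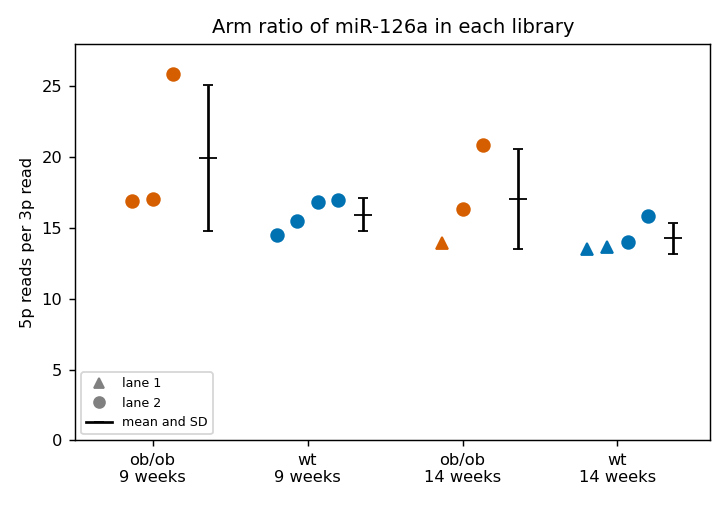
Level of miR-126a-5p per level of miR-126a-3p in each library where both arms were above 0, with group means and SD. The ratio lies between 13.5 and 25.9, and ob/ob overlaps wt at both ages.

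None of 4 comparisons of the log2 ratio passed 0.05 in two-sided exact permutation tests. The mean ratio at 9 weeks was 19.9 ± 5.15 in ob/ob and 16.0 ± 1.16 in wt (SD, n = 3 and 4), a difference of 0.30 ± 0.21 (SE) on the log2 scale with an exact p of 0.0571 (0.171 after Benjamini-Hochberg adjustment over the 4). At 14 weeks it was 17.0 ± 3.52 in ob/ob and 14.3 ± 1.09 in wt (SD, n = 3 and 4), a difference of 0.24 ± 0.18 with an exact p of 0.2 (adjusted 0.267). The smallest p these group sizes allow is 0.0286. Groups of the ratio did not overlap for 11 of 34 abundant hairpins at 9 weeks (32.4%) and for 9 of 33 at 14 weeks (27.3%), miR-126a not among them.

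Between the ages, the mean log2 ratio in ob/ob was lower by 0.22 at 14 weeks than at 9 weeks, a difference of -0.22 ± 0.26 (SE) with an exact permutation p of 0.5 (adjusted 0.5), where 3 against 3 libraries cannot give less than 0.1. In wt the difference was -0.16 ± 0.075, with an exact permutation p of 0.0857 (adjusted 0.171). The ages are in separate tables, whose values may have been normalized separately, but the ratio is formed within a library. Groups of the ratio did not overlap for 7 of 34 hairpins in ob/ob (20.6%) and 0 of 34 in wt (0%).

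The arms varied together. Over the 14 libraries with both above 0, log2 levels gave a Pearson r of 0.939 and a Spearman rho of 0.930, each with a permutation p of 1e-05, the smallest that the resampling can give. Without the 2 libraries farthest from the median of miR-126a-5p, ob/ob replicate 2 of 9 weeks and wt replicate 1 of 14 weeks, r was 0.849 (permutation p 0.00068) and rho 0.888 (permutation p 0.00026). Within 9 weeks r was 0.898 (n = 7, exact permutation p 0.0101) and rho 0.75 (exact permutation p 0.0663), and within 14 weeks r was 0.968 (n = 7, exact permutation p 0.000595) and rho 0.964 (exact permutation p 0.00278). The same measure was computed for each arm against all miRNAs of at least 10 RPM, described at the end, where miR-126a-5p came 5th for miR-126a-3p and the median r was 0.63. The arms of a library share its RNA and its RPM denominator.

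**Figure D4:**
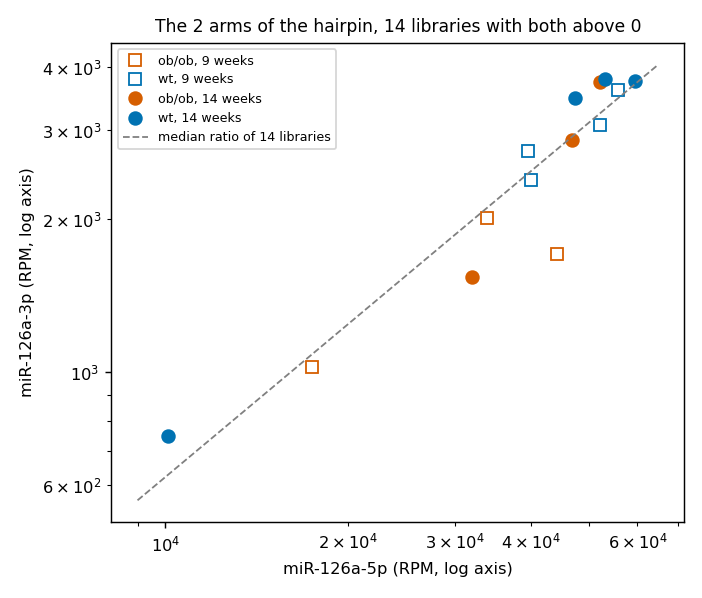
Level of miR-126a-3p against that of miR-126a-5p (RPM, both axes log) in the 14 libraries with both above 0; open squares are 9 weeks, filled circles 14 weeks, and the dashed line is the median ratio. The points follow the line (Pearson r 0.939), with wt replicate 1 of 14 weeks at the low end.

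The 5p to 3p imbalance of miR-126a was small beside that of other hairpins. Of 70 hairpins with both arms listed, 36 had a higher arm of at least 100 RPM on average, in 28 of them the 5p arm. The median log2 ratio of miR-126a was 4.01 (16.1-fold), against a median absolute value of 8.52 (366-fold) over the 36, and by size it was in rank 32 of 36. The largest were miR-21a (16.47), miR-142a (14.03) and let-7b (13.63), and the smallest let-7d (1.98), miR-335 (1.37) and miR-423 (0.14). The log2 ratio of miR-126a also varied little over libraries, with an SD of 0.26 against a median SD of 0.64, the second smallest of the 36 after miR-378a (0.16). The library with the listed 0 was left out of these values. The lower arm of miR-126a, at a mean of 2426 RPM over all libraries, was the highest of the 36. It averaged 429.1 RPM for let-7d, 16.5 RPM for miR-378a and 0.0510 RPM for let-7b. The part of the counting error of rare arms in these SDs was not tested.

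**Figure D5:**
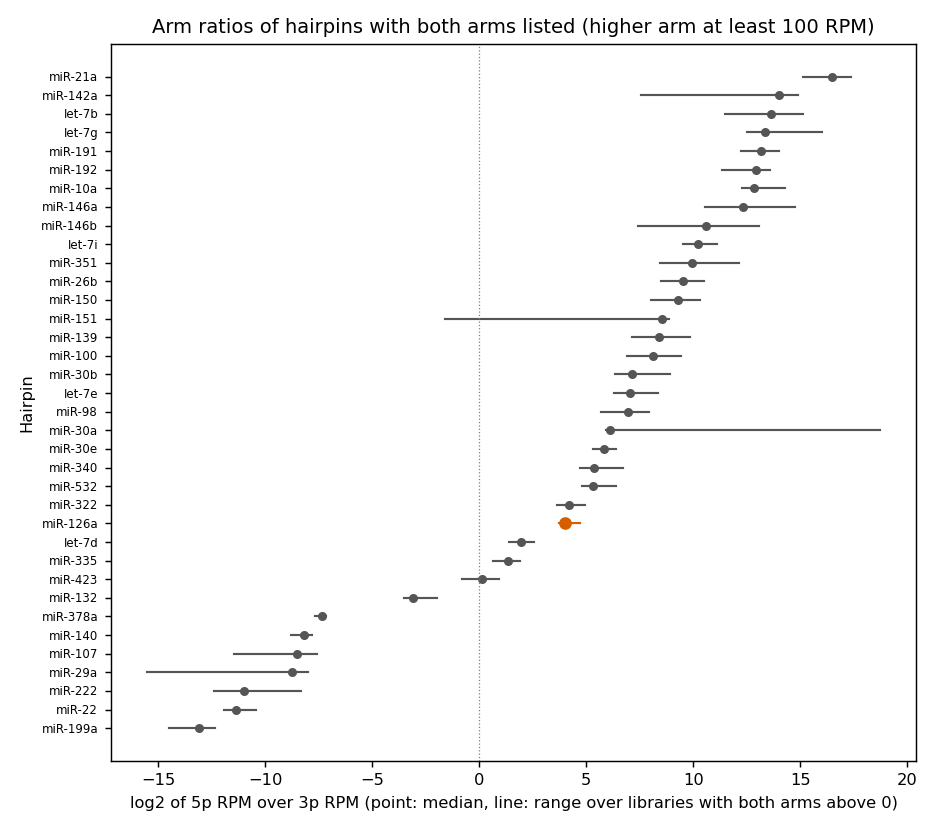
Median log2 of the 5p level over the 3p level, with its range over libraries where both arms are above 0, for the 36 hairpins with a higher arm of at least 100 RPM on average; miR-126a is in orange. Points right of 0 have the higher level in the 5p arm, and miR-126a (median 4.01, rank 32 of 36 by size) lies nearer to 0 than most, with a short range.

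The listed 0 of miR-126a-3p was rare for a miRNA of its level. Of 61 miRNAs with a median of at least 100 RPM, 3 had an exact 0 in any library, in 5 of 915 values. miR-126a-3p had it in ob/ob replicate 2 of 14 weeks, with 747.4 to 3780 RPM elsewhere. miR-93-5p, from an intron of the replication gene Mcm7, was at 0 in wt replicate 2 of 14 weeks and at 233.9 to 606.6 RPM elsewhere. miR-199b-3p, a miRNA of mesenchymal cells, was at 0 in wt replicate 3 of 9 weeks and wt replicates 1 and 4 of 14 weeks, and at 60.8 to 336.8 RPM elsewhere. miR-199a-3p was at 207.1 to 1137 RPM in all libraries. The sources used here do not say how reads were divided between miR-199a-3p and miR-199b-3p. At the depth of ob/ob replicate 2 of 14 weeks a count of 0 allows up to 0.0306 RPM (3 reads), while the lowest level in the other libraries, 747.4 RPM, stood on 6786 reads. Whether this 0 is a level or a failed assignment was not tested.

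The miRNAs whose log2 levels were most like those of miR-126a-5p over the 15 libraries, among 80 with at least 10 RPM in all of them, were miR-27b-3p (Pearson r 0.936), miR-181c-5p (0.924), miR-26a-5p (0.898), miR-10a-5p (0.881) and miR-23b-3p (0.879). The median r over the 80 was 0.51, and libraries share a denominator. After rescaling the same 5 had r of 0.846, 0.817, 0.746, 0.735 and 0.678. For miR-126a-3p over 14 libraries, among 82 miRNAs with a median r of 0.63, they were miR-195a-5p (0.945), miR-10a-5p (0.944), miR-322-5p (0.942), miR-181c-5p (0.941) and miR-126a-5p (0.939). After rescaling these had r of 0.873, 0.821, 0.856, 0.821 and 0.861. miR-10a-5p and miR-181c-5p were among the 5 of both arms as deposited, but after rescaling they were in ranks 7 and 6 for miR-126a-3p, and miR-23b-3p was in rank 8 for miR-126a-5p.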

How the data were processed

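Small RNA of Kupffer cells was sequenced after TruSeq Small RNA preparation on an Illumina HiSeq instrument, per the labels' protocols. The submitters' processing notes list bcl2fastq and cutadapt, with mm10 and GRCm38.p5 as builds. Aligner, counter and miRNA annotation: not given in the sources used here. Deposited values, 1 table per age, were taken as RPM made by the authors. This was inferred from the values, which were whole multiples of 1 step per library within 0.05 reads in at least 99.6% of values above 0. The sources used here do not give the denominator. The step gave the depth, used only for counting error, and no count model was run.

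Limma 3.58.1 (R 4.3.3) was run with trend and robust settings on log2(RPM + 0.5), with Benjamini-Hochberg adjustment and a threshold of 0.05. miRNAs entered with 1 RPM or more in at least the number of libraries of the smaller group. Both arms passed this filter. Fold changes on this scale understate changes of rare miRNAs. Median-ratio rescaling, within each table, used miRNAs without a 0 and with a mean of at least 5 RPM. Arm ratios were tested by exact permutation and correlations with 100000 resamples, or exactly within an age. The script was tested on simulated data. Named were both arms, the angiogenesis list, the 5 most alike to each arm, the 5 most abundant, the 3 largest and 3 smallest arm ratios and the miRNAs with an exact 0 and a median of at least 100 RPM. The members and lists were chosen with earlier results of these data known.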

Additional observations from a re-analysis of the deposited data

Results flagged for a closer look

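The level of miR-126a-3p in wt replicate 1 of 14 weeks, 747.4 RPM, stood far from the other wt libraries of that age, at 3460 to 3780 RPM. Its share of all listed reads was also far from the others, at 0.507%, against 1.06% to 1.14% in the other 3. This library also had the lowest sum of listed miRNAs (147387 RPM), the lowest depth (9.08 M reads) and the lowest miR-126a-5p (10085 RPM), and the part of these in the miR-126a-3p value was not tested. Chance sets apart a library in about 1 in 20 such groups. The same look was taken at the levels and shares of both arms and at the arm ratio in several groups. Chance thus had more than 1 occasion to set a library apart. The level and the share given here come from the same library and are not independent.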

How the results depend on the processing

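The count of miRNAs called by limma at 9 weeks, 67, was 38 after median-ratio rescaling, 32 per listed RPM (each library divided by its sum of listed miRNAs), and 53 to 71 with 1 library left out. At 14 weeks, 26 became 48 after rescaling, 52 per listed RPM, 1 in lane 1, 51 in lane 2, and 13 (without ob/ob replicate 3) to 46 (without wt replicate 1) with 1 library left out. The count was 43 after rescaling without wt replicate 1 and ob/ob replicate 2, and 52 after rescaling with zeros as missing, both chosen after seeing the data. For the interaction, 0 became 4 without the filter, 3 with zeros as missing and 0 to 3 with 1 library left out. Same-numbered ob/ob and wt libraries were no more alike than others (correlations of deviations from -0.241 to 0.278, against -0.383 to 0.337). So few libraries cannot exclude a pairing. With the replicate number as a block the counts were 32 at 9 weeks, 22 at 14 weeks and 2 for the interaction.

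The miR-126a-3p call at 9 weeks (-0.94) was lost per listed RPM (-0.47, adjusted p 0.257), after rescaling (-0.43, adjusted p 0.273; with zeros as missing -0.43, adjusted p 0.237) and with the replicate block (-0.91, adjusted p 0.0927), all by limma, and was -1.14 to -0.65 with 1 library left out. miR-126a-5p at 9 weeks was -0.93 to -0.26 with 1 library left out. At 14 weeks miR-126a-5p (0.35) turned to -0.53 in lane 2 and to -0.27 after rescaling without wt replicate 1 and ob/ob replicate 2, and was -0.25 to 0.60 with 1 library left out. miR-126a-3p (-3.03) turned to 0.049 with zeros as missing, and was -4.24 to 0.049 with 1 library left out. Its interaction (-2.09) turned to 0.99 with zeros as missing and to 0.28 with rescaling added, and was -3.30 to 0.99 with 1 library left out, and that of miR-126a-5p (0.99) turned to -0.13 after rescaling without the same 2 libraries, and was 0.39 to 1.28 with 1 library left out. The log2 arm ratio of ob/ob at 14 against 9 weeks (-0.22) became 2.92 with a pseudocount and the 0 kept (exact permutation p 0.886), and was -0.37 to -0.014 with 1 library left out. With 1 library left out the other ratio differences were 0.092 to 0.40 for ob/ob against wt at 9 weeks, 0.083 to 0.37 at 14 weeks, and -0.21 to -0.13 for wt at 14 against 9 weeks. Apart from the 0 taken as missing, the causes were not tested.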
